A study of Rattus norvegicus with 45 samples.

Results

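The dentate gyrus (DG) was compared with CA3 of the same animal in 9 rats fed ad libitum, on 18 of the 45 arrays of the series, 9 from each region. The arrays were chosen by their labels alone: every DG and CA3 array of the classes ALMA, ALO_GP and ALO_PP was taken. All animals were male F344xBN rats. The ALMA animals were middle-aged, at 18 months, with no performance class. ALO_GP and ALO_PP animals were old, at 28 months, and had been classed as good or poor performers. Each class held 3 animals. A further 6 old animals on restricted food gave 12 arrays that are used below for comparison only. The regions were cut by hand with a razor blade and each piece went onto 1 chip, so each array holds RNA of all cells in a piece of tissue. In such bulk samples, fewer cells of a type and less RNA per cell cannot be told apart.

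Granule cells of the dentate gyrus receive the main input from entorhinal cortex and send mossy fibres to the pyramidal cells of CA3. CA3 pyramidal cells are also connected to each other and project on to CA1. Granule cells are known for dynorphin, enkephalin, calbindin and extrasynaptic GABA receptors, and CA3 pyramidal cells for kainate receptors at the mossy fibre synapse. A small CA2 field lies between CA3 and CA1.

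The arrays (Affymetrix RAE 230 2.0) carry short probes grouped in probe sets, and each value is a dChip signal, a model-based brightness with no unit. Median signals ran from 151.97 to 175.52 on the CA3 arrays and from 151.21 to 174.71 on the DG arrays, and 58.9% to 65.58% of probe sets were called present. Differences below are DG minus CA3 on the log2(signal + 16) scale with a standard error (SE) over 9 animals, tested with limma with the animal as a block. A gene passed at an adjusted p of 0.05, taken over all 18625 probe sets tested, and stands here by its brightest probe set. The value table, a second deposited signal of the same arrays, serves as a check on the dChip processing.

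The descriptor sheet deposited with the age table states that arrays were normalised within each region, so a shift shared by all genes of a region may be missing from it. The deposited age signals nevertheless stand in 1 table of all regions, and the signals of the old animals both in 1 table of all regions, used here, and in tables by region, so which arrays were normalised together is not settled. The p-values measure how the DG minus CA3 difference varies between animals. With 1 piece and 1 chip per region and animal, that spread includes the cutting and the chip.

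The arrays of 2 animals stood apart in the mean level of the granule or the CA3 list. These are 2 of the marker lists for cell types described further on. On the DG array of ALO_GP animal 1 the granule list had a mean log2 level of 10.66, against 10.99 or more on the other DG arrays. The meninges and fibroblast list stood at 11.69 there, against 7.94 to 10.08 on the other DG arrays, and the endothelial and mural list at 10.51, also the highest. Coch, a protein of meningeal fibroblasts as well as a CA3 marker, was 4429 there, with a DG median of 134. The CA3 array of ALO_PP animal 2 had the lowest CA3 list level of its region, 9.40 against 9.78 to 9.90, and the highest CA3 levels of the granule list (10.48) and the CA1 list (10.50). Other animals stood apart in other lists. The DG array of ALMA animal 2 was next highest in the meninges list (10.08) and the endothelial list (9.63). ALO_PP animal 1 came after ALO_GP animal 1 in the red blood cell list, at 10.15 in CA3 and 10.61 in DG. Both stay in where the 2 animals above are left out.

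**Figure D1:**
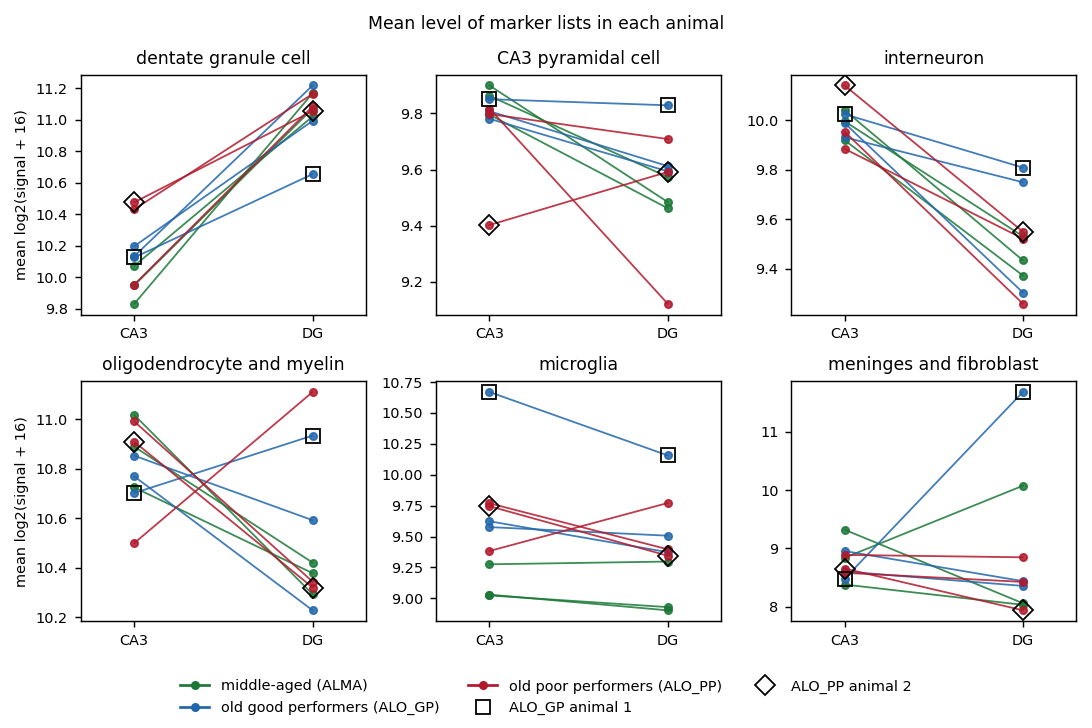
Mean log2(signal + 16) of 6 marker lists in CA3 and DG, 1 line per animal, coloured by class, with ALO_GP animal 1 boxed and ALO_PP animal 2 in a diamond. The granule list separates all 9 DG arrays (10.66 to 11.22) from all 9 CA3 arrays (9.83 to 10.48), and the meninges list is at 11.69 in 1 DG array.

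Of 18625 probe sets, 5526 (29.7%) passed: 3135 (16.8%) were higher in DG and 2391 (12.8%) higher in CA3. The value table called 4342 (23.3%), with 12.4% higher in DG and 10.9% higher in CA3. By gene, 2865 of 9891 (29%) passed, and 1549 (15.7%) were higher in DG and 1316 (13.3%) in CA3. The median difference over all genes tested was 0.0033. Called genes with the same direction in all 9 animals made up 14.9% of those tested. Both signals called the difference in the same direction for 911 genes (9.21%) higher in DG and 870 (8.8%) higher in CA3. Differences over 2-fold were fewer, with 65 genes (0.657%) higher in DG and 43 (0.435%) higher in CA3. All 9 DG arrays lay above all 9 CA3 arrays for 235 genes (2.38%), and the reverse held for 143 (1.45%).

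The promoters of 4 genes at the ends of the comparison are shown for reference, since Nhlh1 and Dsp were among the largest differences towards DG, and Tmem215 and Rgs14 lay towards CA3 or its CA2 border. The windows are 300 bases around the RefSeq gene start (rat build GRCr8), read along the gene. They lie at chr13:87054885-87055184 on the minus strand (Nhlh1), chr17:26877072-26877371 on the minus strand (Dsp), chr5:60408337-60408636 on the plus strand (Tmem215) and chr17:9268184-9268483 on the minus strand (Rgs14). Capitals mark an E-box, CATCTG on either strand (read as CAGATG on the other), or a GC box, GGGCGG on either strand (CCGCCC).
Nhlh1: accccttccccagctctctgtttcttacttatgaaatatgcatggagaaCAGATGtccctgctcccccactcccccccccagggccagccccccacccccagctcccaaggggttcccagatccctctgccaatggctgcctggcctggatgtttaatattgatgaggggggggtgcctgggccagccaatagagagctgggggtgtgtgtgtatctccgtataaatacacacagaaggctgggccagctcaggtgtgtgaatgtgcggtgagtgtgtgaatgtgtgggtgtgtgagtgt
Dsp: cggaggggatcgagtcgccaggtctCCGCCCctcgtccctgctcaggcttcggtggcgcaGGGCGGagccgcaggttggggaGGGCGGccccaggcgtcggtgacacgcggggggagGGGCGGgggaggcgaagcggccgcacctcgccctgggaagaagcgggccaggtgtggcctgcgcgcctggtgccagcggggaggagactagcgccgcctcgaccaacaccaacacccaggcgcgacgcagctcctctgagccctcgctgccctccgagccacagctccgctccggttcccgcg
Tmem215: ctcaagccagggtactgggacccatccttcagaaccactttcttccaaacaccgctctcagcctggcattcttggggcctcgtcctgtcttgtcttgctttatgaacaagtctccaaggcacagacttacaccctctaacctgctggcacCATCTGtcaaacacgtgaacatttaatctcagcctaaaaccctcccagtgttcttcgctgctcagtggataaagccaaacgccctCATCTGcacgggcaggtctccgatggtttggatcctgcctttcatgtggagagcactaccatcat
Rgs14: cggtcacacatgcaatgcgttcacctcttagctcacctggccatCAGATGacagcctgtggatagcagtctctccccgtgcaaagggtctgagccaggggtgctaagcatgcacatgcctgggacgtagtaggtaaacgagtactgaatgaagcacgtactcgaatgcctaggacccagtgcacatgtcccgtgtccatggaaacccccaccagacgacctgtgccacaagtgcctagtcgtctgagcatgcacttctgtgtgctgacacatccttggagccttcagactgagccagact

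The E-box stood 1 time in Nhlh1, 2 times in Tmem215 and 1 time in Rgs14, and in 16.6% of all 33469 promoter windows. Dsp held the GC box 4 times, and 33.1% of all windows hold it at least 1 time. Of the 15 genes of largest difference in each direction, 11 of those higher in DG had a window, and 1 of these held the E-box. For those higher in CA3 14 genes had a window, and 3 held it. The GC box stood in 5 of the 11 genes higher in DG and in 7 of the 14 higher in CA3. In all 7 motifs were searched, and the genes and motifs shown were chosen after the matches were seen. The other 5, with their shares of all windows, were TGACGTCA (1.83%), TGACG, which lies inside the former (21.2%), CAGCTG (15.1%), CACGTG (6.42%) and TGACTCA (4.63%). The matches are a description of the windows only.

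Nhlh1, a basic helix-loop-helix transcription factor of developing neurons, differed most among genes higher in DG. Its signal was 69.2 at the lowest, 199 at the median and 479 at the highest on CA3 arrays, against 758, 1313 and 1615 on DG arrays. The regions did not overlap, and the difference was 2.44 (SE 0.25, limma adjusted p = 9.5e-05), or 5.44-fold. Perp and Dsp, both parts of desmosomes, the junctions that rivet cells together, followed. Dsp signals ran from 178 through 226 to 405 in CA3 and from 631 through 1085 to 1363 in DG, and Perp differed by 2.10 (SE 0.19, limma adjusted p = 6.2e-05). For Dsp the gap between the regions was clear in all 9 animals, at 1.95 (SE 0.14, limma adjusted p = 2.2e-05).

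The other 12 of the 15 largest differences towards DG lay between 1.44 and 1.93. They included Rprm, a cell cycle regulator, at 1.93, and Gpc3, a cell-surface heparan sulphate proteoglycan, at 1.92. Grm2, a presynaptic metabotropic glutamate receptor, was at 1.87, and Galr2, a receptor for galanin, at 1.79. Unc13c, which primes synaptic vesicles, was at 1.79, and Arg1, which splits arginine, at 1.74. Pdyn, the precursor of dynorphin, was at 1.70, as was Cd55, which limits complement on cell surfaces. Lox, which cross-links collagen, stood at 1.61, Tshz3, a zinc finger transcription factor, at 1.56, Nherf4, a scaffold protein, at 1.45 and Btbd16 at 1.44. CA3 and DG arrays did not overlap for 12 of these 15 genes. The CA1 arrays of the same animals had a mean between CA3 and DG for all 15, and nearer to CA3 for 12.

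**Figure D2:**
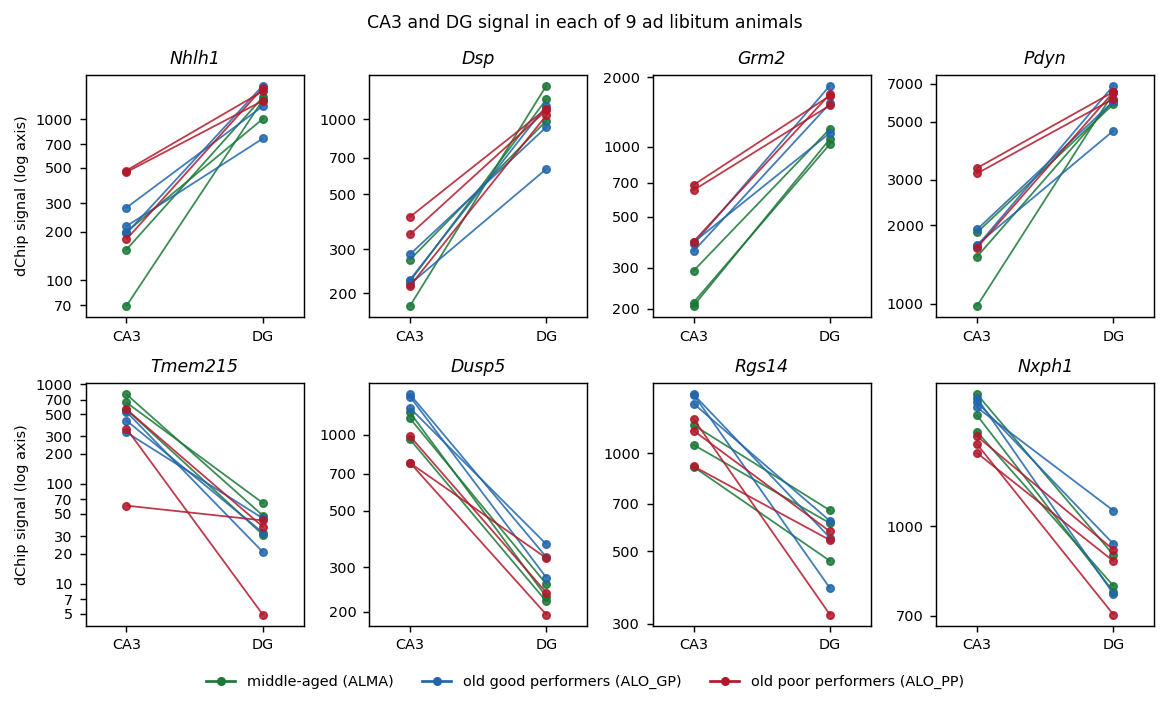
Signals of 8 genes in CA3 and DG (dChip signal on a log axis); each line joins the pieces of 1 animal, coloured by class. Nhlh1, Dsp, Grm2 and Pdyn rose from CA3 to DG in every animal; Tmem215, Dusp5, Rgs14 and Nxph1 fell in every animal, and Tmem215 by little in 1 old poor performer, whose CA3 signal was 60.5.

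Towards CA3, Tmem215, which codes for a membrane protein, had the difference of largest size, with low signals in DG. It was 60.5 at the lowest, 528 at the median and 790 at the highest in CA3, and 4.89, 37.2 and 64.3 in DG, where it was called present on 5 of 9 arrays and lay below the median signal of every array. The regions overlapped only through the CA3 array of ALO_PP animal 2, the lowest of its region, and the difference was -3.10 (SE 0.33, limma adjusted p = 0.00013) with that animal and -3.44 without it. Tnnt1, a troponin of slow muscle, differed by -2.70 (SE 0.20, limma adjusted p = 2.3e-05), and Cdhr4, a cadherin-related protein, by -2.63. Both had low DG signals, with medians of 122 and 29.1, called present on 5 and 3 of 9 DG arrays.

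Dusp5, a nuclear phosphatase that acts on ERK kinases, was 773 at the lowest, 1158 at the median and 1441 at the highest in CA3, and 195, 257 and 369 in DG. It differed by -1.97 (SE 0.10, limma adjusted p = 6.2e-06) with no overlap. Fibcd1, a chitin-binding membrane protein used as a CA1 marker, differed by -1.87, and its CA1 median of 2433 lay above the CA3 median of 1588. P2rx6, an ATP-gated channel subunit, differed by -1.65, with a DG median of 60.5 and present calls on 5 of 9 DG arrays. A further 8 lay between -1.49 and -1.21. They were Rem2, a small GTPase that inhibits calcium channels, Trhde, the peptidase that inactivates thyrotropin-releasing hormone, Dynlrb2, a dynein light chain, Rasl11b, a Ras-like GTPase, Sfrp2, a secreted Wnt antagonist, Ankrd63, Plcxd3, a phospholipase-like protein, and Popdc3, a cyclic AMP-binding membrane protein.

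These 30 genes were chosen for passing in both signals with all 9 animals on the same side, as did 555 genes higher in DG and 491 higher in CA3. The differences towards CA3 were smaller in the value table, such as -2.33 for Tmem215, -1.39 for Tnnt1 and -1.17 for Cdhr4. The 2 signals differ in scale, with a median array signal over all 18 arrays of 158.5 in dChip and 32.7 in the value table. Both were raised by the same 16, which is larger relative to value-table signals. The part of this offset in the smaller differences was not tested.

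**Figure D3:**
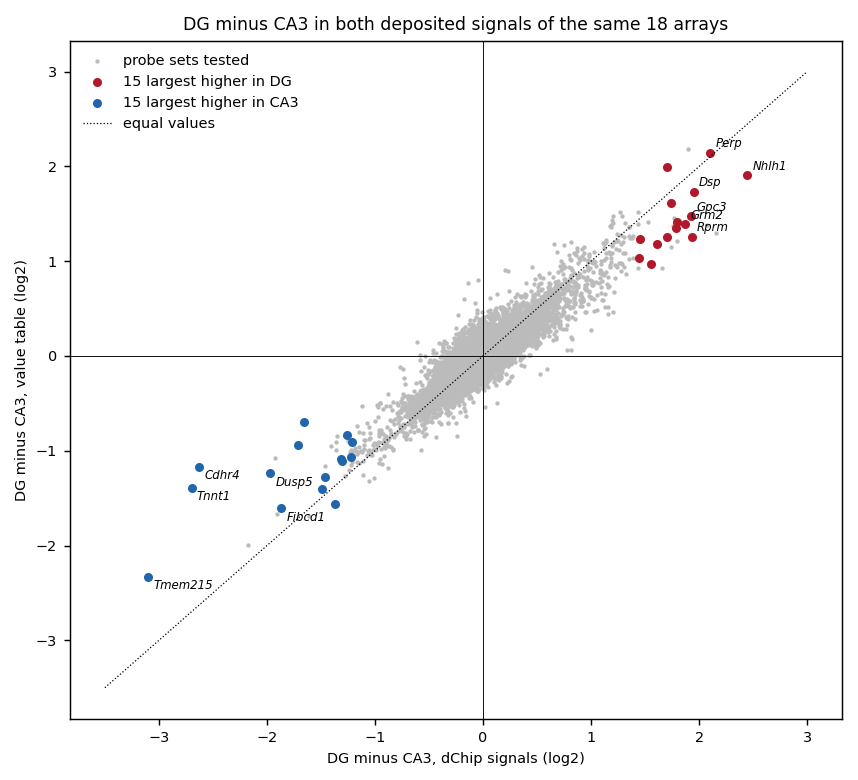
DG minus CA3 in dChip signals (horizontal, log2) against the value table (vertical, log2), 1 point per probe set, with the 15 genes of largest difference in each direction in colour and a line of equal values. Tnnt1 at -2.70 and -1.39 and Cdhr4 at -2.63 and -1.17 lie far from the line, while Perp at 2.10 and 2.14 lies on it. Both signals were raised by 16, though array medians are lower in the value table.

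The tissue labels were checked against markers. Over all genes tested 15.7% were higher in DG and 13.3% higher in CA3, and the counts of each list stand beside these shares. Of 26 genes listed for dentate granule cells 21 were on the arrays and 16 passed the level filter (a mean above the 40th percentile of all probe sets). Of these 14 were higher in DG and 0 higher in CA3, with a median difference of 0.93 against 0.00 over all genes. Signals for Pdyn ran from 980 through 1688 to 3325 in CA3 and from 4627 through 6139 to 6902 in DG, without overlap. Trpc6, a calcium-permeable cation channel, differed by 1.39, Fat4, an atypical cadherin, by 1.35, Rasl10a, a Ras-like GTPase, by 1.35 and Plk5, a polo-like kinase, by 1.26. Ntng1, a netrin of axons, and Dock10, a guanine nucleotide exchange factor, were both at 1.13. Smaller differences passed for Sipa1l2 at 0.74, Sema5a, a semaphorin, at 0.71, Calb1, the calcium buffer calbindin, at 0.62, Ppp1r1a, a phosphatase inhibitor, at 0.52, and Bhlhe22, a transcription factor, at 0.24. Maml2 at -0.15 and Marcksl1 at 0.06 did not pass. Prox1, Tdo2, C1ql3, Rfx3 and Nrp2 were below the level filter.

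Of 26 CA3 pyramidal cell genes, 22 were on the arrays and 16 were tested. In all 6 were higher in CA3, against 13.3% of all genes, 0 higher in DG, and the median was -0.21. Signals of Nectin3, an adhesion protein of CA3 pyramidal cells, were 289 at the lowest, 726 at the median and 892 at the highest in CA3, and 187, 343 and 521 in DG. The regions overlapped, and ALO_PP animal 2 went the other way, with 289 in CA3 and 521 in DG. The difference was -0.93 (SE 0.22, limma adjusted p = 0.012). Elavl2, a neuronal RNA-binding protein, differed by -0.83, Plagl1, a zinc finger protein, by -0.74, Bok, a Bcl-2 family member, by -0.60, Grik4, a high-affinity kainate receptor subunit, by -0.41 and Homer3, a postsynaptic scaffold, by -0.39. Cpne4 at -0.69 and Rgs4 at 0.66 did not pass, nor did Coch, Trhr, Nnat, Prss35, Cpne9, Fmo1, Trps1 and Mas1, which lay between -0.28 (Nnat) and 0.32 (Prss35). Leaving out ALO_GP animal 1 and ALO_PP animal 2 together, a choice made after the data were seen, gave 8 of 16 higher in CA3, and Cpne4 then passed at -0.75 (limma adjusted p = 0.0047). Leaving out any single animal gave 3 to 8. The lowest count, 3, came without ALMA animal 2, ALMA animal 3 or ALO_PP animal 3, and the value table gave 4. A single member was higher in DG without ALMA animal 1, without ALO_PP animal 2 and after median centring.

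Over the whole lists, the summed granule signal was 24148 to 36520 in CA3 and 38189 to 54076 in DG. The summed CA3 signal was 19024 to 27647 in CA3 and 15737 to 26756 in DG, with overlap. The count of granule genes higher in DG was 14 without any single animal and without both animals together, and without ALO_PP animal 1 a further 1 was higher in CA3. Over all probe sets 6110 (32.8%) passed without both animals.

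Of 8 CA2 genes tested, 5 were higher in CA3 and 2 in DG, against 13.3% and 15.7% of all genes. Rgs14, a regulator of G protein signalling that limits plasticity in CA2, was 909 at the lowest, 1220 at the median and 1517 at the highest in CA3, and 320, 551 and 668 in DG. It differed by -1.20 (SE 0.14, limma adjusted p = 0.00022) with no overlap. Amigo2, an adhesion protein of CA2, differed by -1.06 and Srgap2, a regulator of spine maturation, by -0.91. Ntf3, the neurotrophin NT-3, which both CA2 and granule cells express, went towards DG by 1.08 (SE 0.12, limma adjusted p = 0.00018). Of 10 CA1 genes, Fibcd1 and Man1a1, a mannosidase at -0.74, were higher in CA3, and 1 was higher in DG. Summed CA1 list signals were 9848 to 27912 in CA3 and 8567 to 17265 in DG, and the part of CA1 and CA2 tissue in the differences was not tested.

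Interneuron genes lay towards CA3, with 13 of 16 tested higher there, a median of -0.49, and 0 higher in DG, against 13.3% of all genes. Nxph1, a neurexin ligand made by interneurons, was 1339 at the lowest, 1556 at the median and 1693 at the highest in CA3, and 703, 871 and 1065 in DG. It differed by -0.83 (SE 0.06, limma adjusted p = 2.2e-05), with no overlap. Crhbp, which binds corticotropin-releasing hormone, differed by -0.85, Dlx1, a homeobox factor of GABA cells, by -0.62, Pvalb, parvalbumin, by -0.57 and Cck, cholecystokinin, by -0.55. Slc32a1, which loads GABA into vesicles, differed by -0.50, Sst, somatostatin, by -0.39, Gad2, which makes GABA, by -0.34 and Npy, neuropeptide Y, by -0.23. Between 11 and 13 passed without any single animal, 11 without both animals that stood apart, and 12 in the value table.

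Hilar mossy cell genes gave 2 of 8 higher in CA3, Ajap1, a junction protein, at -0.86 and Calb2, calretinin, at -0.37, and 0 higher in DG. Calb2 is also a member of the interneuron list and of the thalamic list further on, so its call is not separate from theirs. In the list for neurogenesis and immature neurons 3 of 16 were higher in DG and 5 in CA3, the latter 3 without ALMA animal 3 or ALO_GP animal 2 and 2 in the value table. Dcx, doublecortin, a microtubule protein of immature neurons, was 401 at the lowest, 590 at the median and 724 at the highest in CA3, and 316, 405 and 580 in DG, a difference of -0.53 (SE 0.08, limma adjusted p = 0.0013). The groups overlapped, yet Dcx was lower in DG in all 9 animals. Neurod6, a transcription factor of mature pyramidal neurons, differed by -0.88, while Sox4, a factor of differentiating neurons, at 0.58 and Ncam1, an adhesion molecule, at 0.61 were higher in DG. The Ncam1 probe set was called present on 1 of 9 DG arrays and 0 of 9 CA3 arrays.

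**Figure D4:**
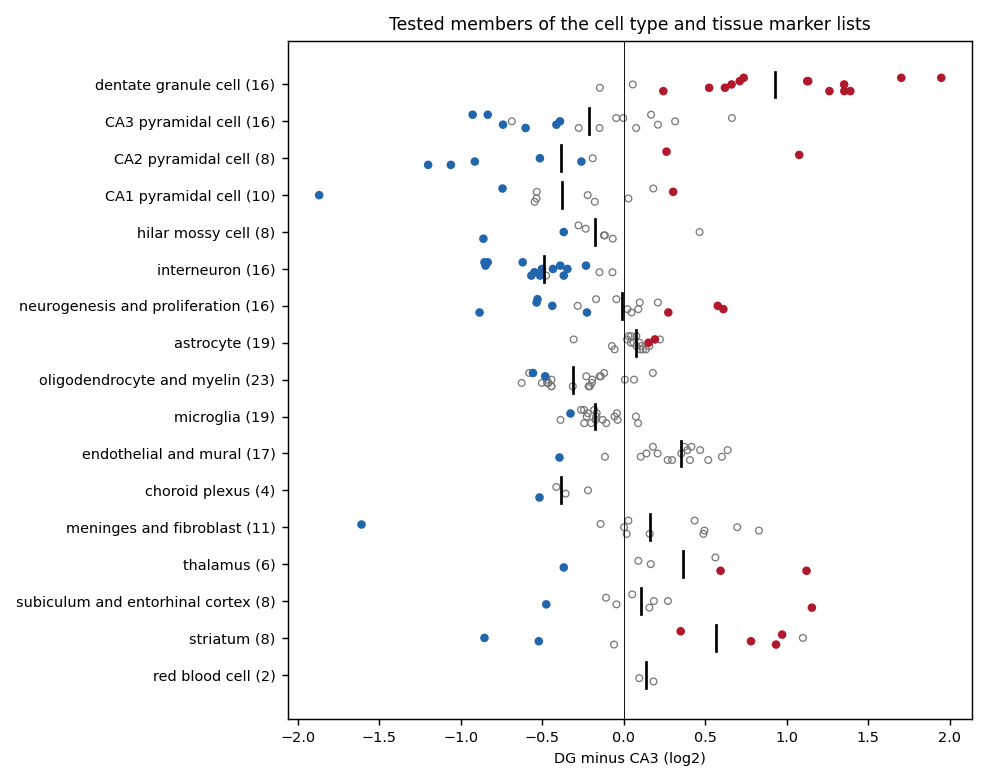
DG minus CA3 (log2) of every tested member of the marker lists, 1 point per gene, filled where it passed the threshold (red higher in DG, blue higher in CA3), with a bar at each list's median and the number tested in brackets. Granule genes lie to the right (median 0.93) and interneuron genes to the left (median -0.49).

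Glial and vascular lists gave few calls. Astrocyte genes were higher in DG for 2 of 19, Slc1a2, the main glutamate transporter, at 0.19 and Aldoc at 0.15, and neither passed in the value table. For oligodendrocytes and myelin 2 of 23 were higher in CA3, among them Gal3st1, which makes sulphatide, at -0.48. Without ALO_PP animal 1, whose DG array had the highest myelin level of its region (11.11), 16 of 23 were higher in CA3, against 7 without ALO_GP animal 1 and 0 without any other single animal. Microglial genes gave 1 of 19, Tyrobp, an immune receptor adaptor, at -0.33, against 8 without that animal and 0 without any other single animal. Summed myelin signals ran from 75455 to 99784 in CA3 and from 67095 to 102473 in DG, and the summed microglial ones from 21573 to 51362 and from 20662 to 40912.

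Summed endothelial and mural signals ran from 9636 to 14155 in CA3 and from 10530 to 42863 in DG, and meningeal ones from 9121 to 14568 and from 6098 to 44354. Of 17 endothelial and mural genes 1 passed, Acta2, smooth muscle actin, at -0.40. The median was 0.35, but 0.14 without ALO_GP animal 1, whose DG array held the highest level of this list, and 0.22 without both animals that stood apart. Choroid plexus gave 1 of 4, Cab39l, at -0.52, and Ttr, transthyretin, the main product of choroid plexus, ranged from 183 to 10473 in CA3 and from 166 to 6156 in DG. The meninges list had a median of 0.16, towards DG, and of -0.19 without ALO_GP animal 1. Col1a2 at 0.83, Col3a1 at 0.70 and Igf2 at 0.50 lay towards DG without passing. Of 11 members 1 passed, Lum, a small proteoglycan, and it went towards CA3 by -1.61 (SE 0.28, limma adjusted p = 0.0023). Lum was 492 at the lowest, 1676 at the median and 2530 at the highest in CA3, and 185, 442 and 1740 in DG. The part of these tissues in the other differences was not tested. No blood gene of 2 passed in limma. Of 6 thalamic genes 2 were higher in DG, Amotl1, an angiomotin, at 1.12 and Vav3, a signalling adaptor and exchange factor, at 0.59, and Calb2 was higher in CA3. Of 8 striatal genes 4 were higher in DG and 2 in CA3, and of 8 subicular and entorhinal genes 1 each, with Cbln1, a synapse organiser, at 1.16 towards DG. Summed signals did not overlap between regions for the thalamic list (3467 to 5062 in CA3, 5684 to 8166 in DG) or the striatal list (3347 to 5105 and 5110 to 6639). Mean log2 levels did overlap, at 8.98 to 9.58 in CA3 and 9.39 to 10.23 in DG for the thalamic list and at 8.12 to 8.79 and 8.50 to 9.27 for the striatal list. Among the striatal members Penk at 0.97 and Drd1 at 0.94 lay towards DG, and Foxp1 at -0.52 towards CA3. Penk is also known from granule cells, and its signals, given further on, made up much of the striatal sum.

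The counts in the functional lists that follow likewise stand beside 15.7% of all genes higher in DG and 13.3% higher in CA3. Glutamate receptors differed by subunit. Grm2 was 206 at the lowest, 380 at the median and 685 at the highest in CA3, and 1028, 1513 and 1841 in DG, with no overlap (1.87, SE 0.13, limma adjusted p = 1.7e-05). The postsynaptic scaffolds Homer1 at -0.43 and Homer3 went towards CA3. Of 8 metabotropic members 2 passed in each direction. Kainate receptor genes gave 1 of 6 higher in DG, Grik2 at 0.31, and 2 higher in CA3, Grik4 and the auxiliary subunit Neto1. Neto1 was 1043 at the lowest, 2001 at the median and 2481 at the highest in CA3, and 531, 1075 and 1278 in DG (-0.96, SE 0.21, limma adjusted p = 0.0066). Its regions overlapped. Among AMPA and NMDA receptor genes 3 of 10 were higher in DG, among them Cacng3, an AMPA receptor auxiliary protein, at 0.49 and the AMPA subunit Gria4 at 0.35, and 1 was higher in CA3, Cnih2, another auxiliary protein, at -0.19.

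GABA receptor genes gave 4 of 12 higher in DG and 1 higher in CA3. Gabrd, the delta subunit of extrasynaptic receptors, was 362 at the lowest, 466.5 at the median and 784 at the highest in CA3, and 851, 1178 and 1361 in DG (1.12, SE 0.11, limma adjusted p = 0.0001). The regions did not overlap. Gabra4, its usual alpha partner in forebrain, differed by 0.60, while Gabra5, which forms extrasynaptic receptors of pyramidal cells, differed by -0.32.

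Potassium channel genes gave 9 of 38 higher in DG, against 15.7% of all genes. A further 5 were higher in CA3, a share near the 13.3% of all genes. Kcna5 at 1.16 and Kcna4 at 0.67, voltage-gated subunits, Kcnj4, an inward rectifier, at 0.78, and Kcnd3, an A-type subunit, at 0.52 were higher in DG. Sodium channel genes gave 2 of 11 higher in DG, with Scn3a at 0.46, and 5 higher in CA3, with Scn4b at -0.47 and Scn1a at -0.28, though 2 after median centring. Calcium channel genes gave 3 of 22 higher in DG (5 without ALO_GP animal 1) and 4 higher in CA3, against 15.7% and 13.3% of all genes. Towards DG lay Trpc6 and, at 0.47, Stim1, the sensor of calcium stores. Trpc4 at -0.68 and Cacnb2, a beta subunit, at -0.59 lay towards CA3. In the list for calcium-binding and kinase signalling 8 of 36 passed in each direction. Prkca and Camk1g, both kinases activated through calcium, differed by -0.86, while Ncald, a calcium sensor, differed by 0.22.

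Among neuropeptides 5 of 28 were higher in DG, a share near the 15.7% of all genes, and 12 were higher in CA3, against 13.3% of all genes. The list shares Npy, Sst, Cort, Cck, Vip and Tac1 with the interneuron list, so its count towards CA3 is not separate from that list's. Penk, the precursor of enkephalins, was 1357 at the lowest, 1556 at the median and 2616 at the highest in CA3, and 2719, 3381 and 4145 in DG (0.97, SE 0.10, limma adjusted p = 8.8e-05), with no overlap. Adcyap1, the peptide PACAP, differed by 1.01 and Bdnf, brain-derived neurotrophic factor, by 0.52, while Crh, corticotropin-releasing hormone, at -0.66 and Chga, a granin of secretory vesicles, at -0.40 went towards CA3. Receptors for peptides and amines gave 8 of 29 higher in DG and 7 higher in CA3. Drd1, the D1 dopamine receptor, differed by 0.94, Vipr1, a receptor for vasoactive intestinal peptide, by 0.85, and Sstr2, a somatostatin receptor, by 0.74. The serotonin receptor genes Htr7 and Htr2c went towards CA3. Htr7 had medians of 175 in CA3 and 84.7 in DG, and Htr2c differed by -0.86.

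Among neurotrophin genes 3 of 15 were higher in DG and 5 higher in CA3, the latter with the GDNF receptor Gfra1 at -0.57 and the sorting receptor Sort1 at -0.22. The glucocorticoid list gave 2 of 13 higher in DG, a share near the 15.7% of all genes, and 3 higher in CA3, against 13.3%. Per1, a clock gene, at 0.35 lay towards DG. Sgk1, a kinase induced by corticosteroids, at -0.40 and Nr3c2, the mineralocorticoid receptor, at -0.33 lay towards CA3. Immediate early genes gave 5 of 27 higher in DG and 9 higher in CA3. Btg2, an antiproliferative gene, was 76.9 at the lowest, 101 at the median and 154 at the highest in CA3, and 180, 208 and 264 in DG (0.94, SE 0.07, limma adjusted p = 1.8e-05). Dusp6, a cytoplasmic ERK phosphatase, differed by -0.55, in the direction of Dusp5.

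Genes of synaptic vesicles and release gave 5 of 34 higher in DG and 6 higher in CA3, shares near the 15.7% and 13.3% of all genes. Unc13c was 99.3 at the lowest, 139 at the median and 226 at the highest in CA3, and 303, 565 and 707 in DG. Synpr, a vesicle protein of mossy fibre terminals, differed by 0.76, Cplx3, a complexin, by 1.20, and Slc30a3, the transporter that fills vesicles with zinc, by 0.53, whereas Syt12, a synaptotagmin, differed by -0.76. Guidance and adhesion genes gave 16 of 61 higher in DG and 17 higher in CA3. Gpc4, a glypican, at 1.29 and Cdh13, a cadherin, at 0.91 were higher in DG, and Epha6, an ephrin receptor, at -0.96 was higher in CA3.

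Among neuronal transcription factors 17 of 52 were higher in DG, against 15.7% of all genes, and 9 higher in CA3 (5 in the value table). Foxo1, a forkhead factor under insulin control, was 153 at the lowest, 227 at the median and 309 at the highest in CA3, and 318, 411 and 483 in DG. The regions did not overlap, and the difference was 0.81 (SE 0.10, limma adjusted p = 0.0003). Zfpm2, a cofactor of GATA factors, differed by 1.08, Tshz1 by 0.76, Mef2c, an activity-regulated factor, by 0.61 and Bcl11b, needed for granule cell development in mice, by 0.61. Meis2, a homeobox factor, went towards CA3 by -0.91, and Foxp1, a forkhead factor, by -0.52. The Wnt, BMP and Notch list gave 6 of 37 higher in DG, a share near the 15.7% of all genes, and 8 higher in CA3, against 13.3%. Tgfb2, a TGF-beta ligand, at 0.93 and Smad1 at 0.48 lay towards DG. Sfrp2 and Inhbb, an activin subunit, at -1.31 and -1.06 lay towards CA3.

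**Figure D5:**
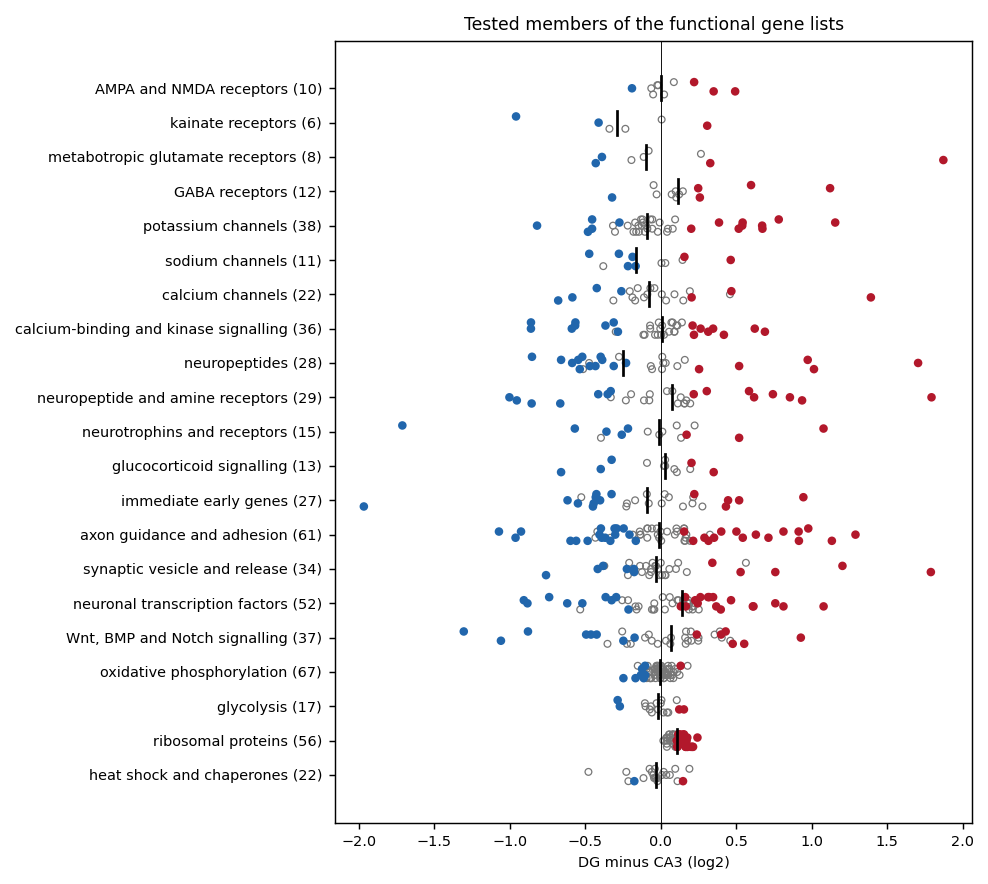
DG minus CA3 (log2) of every tested member of the functional lists, 1 point per gene, filled where it passed the threshold (red higher in DG, blue higher in CA3), with a bar at each list's median. The receptor and immediate early gene lists hold members far from 0 (Grm2 at 1.87, Dusp5 at -1.97), while the ribosomal list lies in a narrow band above 0 (0.02 to 0.24).

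Ribosomal protein genes ranged from 0.02 to 0.24 with a median of 0.11. In all 29 of 56 passed as higher in DG, against 15.7% of all genes, with Rpl4 at 0.24 and Rps3 at 0.21. In the value table the median was 0.08 and 3 passed, and quantile normalisation gave 17. Without ALMA animal 3, ALO_GP animal 2 or ALO_GP animal 3 the count was 17, 19 and 18. Over all omissions of a single animal it ran from 17 to 37. Oxidative phosphorylation genes gave 7 of 67 higher in CA3, with Atp5mc1, an ATP synthase subunit, at -0.25 and Ndufv3, of complex I, at -0.17, and 1 higher in DG. That share towards CA3 is below the 13.3% of all genes, and the count was 1 after median centring, 11 in the value table and 2 to 6 with any single animal left out (2 without ALO_GP animal 3). Glycolysis genes gave 2 of 17 in each direction, with Ldha, lactate dehydrogenase, at -0.27 and Pfkl, a phosphofructokinase, at -0.29 towards CA3. Of the genes named from the lists, Bhlhe22, Plagl1, Homer3, Calb2, Aldoc, Slc1a2, Acta2, Pfkl, Rps3 and Hsp90b1 did not pass in the value table. Acta2, Aldoc, Cnih2, Cplx3, Gal3st1, Grik4, Homer3, Htr2c, Npy, Pfkl, Plagl1, Slc1a2 and Tyrobp each lost the call when at least 1 single animal was left out. Of 22 chaperones 1 passed in each direction, Hsp90b1 of the endoplasmic reticulum at 0.15 towards DG.

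The difference between regions was then set against age. In the middle-aged animals alone 1910 probe sets (10.3%) passed (5.84% of those tested higher in DG, 4.42% higher in CA3), and in the 6 old animals 1746, or 9.37% (5.56% and 3.82%). These sets share no animal. Of probe sets called higher in DG in middle age, and tested in both, 1058 of 1072 (98.7%) had the same sign in the old animals and 532 passed there too. For those higher in CA3 the figures were 767 of 797 (96.2%) and 287. Both sets of animals come from the same deposited table. In a direct test of the difference, old minus middle-aged (6 against 3 animals), 0 probe sets (0%) passed in limma and 795 (4.27%) had an unadjusted p under 0.05. The smallest p values belonged to Hsd17b8, a steroid dehydrogenase, Nle1, a Notch pathway and ribosome assembly factor, and Cc2d2a, a protein of cilia. DG minus CA3 for Hsd17b8 was 0.03 ± 0.26 (SD, n = 6) in old and -0.51 ± 0.07 (SD, n = 3) in middle-aged animals (limma adjusted p = 0.95). For Nle1 it was 0.09 in old and -0.39 in middle-aged animals (difference 0.48, SE 0.08), and for Cc2d2a 0.17 and 0.81 (difference -0.64, SE 0.12). The value table gave 0.11, -0.06 and -0.07 for these 3 differences. The value-table signal of a DapX control probe set, for a bacterial transcript, was 534 to 686 on the middle-aged arrays, 148 to 185 on the old CA3 arrays and 190.4 to 245 on the old DG arrays. Its part in the results was not tested.

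Poor minus good performers (3 against 3 old animals) gave 0 probe sets (0%) in limma, with 1957 (10.5%) at an unadjusted p under 0.05. The DG arrays of all 3 poor performers carry a suffix a in their animal codes, and no array of the good performers does. What the suffix stands for is not stated. In DG it cannot be told apart from performance, and its part in these values was not tested. Cxcl3, a chemokine, differed by 0.47 ± 0.23 (SD, n = 3) in poor and -0.65 ± 0.06 (SD, n = 3) in good performers (limma adjusted p = 0.13). Kntc1, of the kinetochore, differed by 0.24 against -0.89 and Golt1b, of Golgi transport, by 0.10 against -0.87, and in the value table the difference between classes was 0.05 and -0.12 for these. On simulated data of the same size, differences between performance classes of 1 on the log2 scale were recovered for 60% of the 50 probe sets changed, and those of 0.5 for 12% of 50. The noise there was drawn separately for each probe set.

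The 6 restricted animals (CRO_GP and CRO_PP, old, in the deposited table of all old arrays) share no array with the animals above. There 2457 probe sets passed, 1490 (8%) higher in DG and 967 (5.19%) higher in CA3. Of the 3076 probe sets higher in DG in ad libitum animals and tested in both, 2963 (96.3%) had the same sign in restricted animals and 1153 passed there in that direction. Of 2328 higher in CA3, 2036 (87.5%) had the same sign and 623 passed. The 2 deposited tables differ in balance for the same old ad libitum animals. Their median difference over all probe sets was 0.0376 in the table of all old arrays and 0.0091 in the age table. There 1334 probe sets passed towards DG and 595 towards CA3, against 1035 and 711 in the age table. The part of this shift in the 2 shares was not tested. Among the 15 genes of largest difference in each direction, 15 and 14 passed in restricted animals the same way, and Tnnt1 was not tested there. Nhlh1 differed by 2.72 and Tmem215 by -3.58 in those animals. The DapX control was at 0.495 to 12.6 on 11 of the 12 restricted arrays and at 182 on the CA3 array of CRO_GP animal 1, whose DG array had 5.64. Its part in the comparison by diet was not tested. Restricted minus ad libitum old animals (6 against 6) gave 0 probe sets (0%) in limma, and 1374 (7.38%) had an unadjusted p under 0.05. Ucp3, a mitochondrial uncoupling protein, Tmc4, a channel-like membrane protein, and Car3, a carbonic anhydrase, had the smallest p values. Their DG minus CA3 differences were 0.07, 1.57 and -1.55 in restricted animals and -0.48, 0.00 and -0.55 in ad libitum animals (limma adjusted p = 0.60 each). Tmc4 ranged from 0.10 to 3.04 among the 6 restricted animals and from -0.41 to 0.48 among the 6 ad libitum animals.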

How the data were processed

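RNA from CA3 and DG of 9 ad libitum rats was measured on Affymetrix RAE 230 2.0 arrays, 1 chip per region and animal per the labels. The authors deposited dChip signals, an intensity on a linear scale, in a table of the 27 ad libitum arrays and a table of the 36 old arrays. Each comes with the authors' deposited detection calls, which have no unit. The deposited description says that the age arrays were normalised for each region separately, so a shift common to all genes of a region may have been removed. The value table is a second deposited intensity on a linear scale for every array, of which no header or label names the software. Signals were raised by 16 and taken to log2 here, and the deposited files hold no log2 values of these tables. The 18625 probe sets brighter on average than the 40th percentile were tested.

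limma 3.58.1 under R 4.3.3 was fitted with animal and region as terms on 18 arrays, two-sided, with Benjamini-Hochberg adjustment over all probe sets. Age, performance and diet were tested on within-animal differences. The block comes from the animal codes in the labels. The titles number the CA3 arrays of ALO_PP (and of CRO_PP) 2, 3 and 4 and their DG arrays 1, 2 and 3. Arrays were therefore paired by animal code, and animals are numbered 1 to 3 here. In ALO_PP animals 1 and 2 and CRO_PP animal 2 the code has a suffix a on the DG array only. In ALO_PP animal 3 the CA3 and the DG array both have it. Codes with and without the suffix were assumed to mean the same animal. The DG array of CRO_GP animal 2 is a poor performer in its description and a good one in its title, and the title was followed. One animal code stands on 2 CA3 arrays of ALMA, which were told apart by their titles, and exchanging them was an alternative. On these arrays deviations of the CA3 and DG arrays of 1 animal correlated by 0.06 on average over 9 pairs (-0.20 to 0.32). For different animals of the same class it was -0.03 over 18 pairs (-0.31 to 0.21). The pairs of ALO_PP animals 1 and 2, which rest on the suffix, had -0.20 and -0.11. The crossed pairs of these animals had 0.16 and 0.16. ALO_GP animal 2, with no suffix, had -0.12. The ranges overlap, so these values cannot decide which arrays belong together.

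Of 31099 probe sets, 18787 had 1 gene symbol (18475 through RefSeq records), 687 several, 11568 none, and 57 were controls. Named genes were the 15 largest differences in each direction that passed in both signals with all 9 animals on the same side, the 4 members with the lowest p in each of 38 gene lists, all tested granule and CA3 markers, and the 3 smallest p values where nothing passed. A part of these is named, and some are not reported here. Adcyap1, Bdnf, Htr7, Htr2c, Cplx3, Mef2c, Bcl11b, Meis2, Kcna4, Pvalb, Sst, Npy, Gad2 and Slc32a1 were added after their values were seen. The comparison, its members and the lists were chosen with earlier results of these data known. On simulated data the fit of DG minus CA3 recovered 66% of differences of 0.5 on the log2 scale and 94% of those of 1, with 18625 probe sets. There 50 probe sets were changed at each size, a far smaller share than the 29.7% that passed in the data. The noise was drawn separately for each probe set, so recovery in the data may differ. The number of arrays limits the precision. Alternatives were another pseudocount, filter, scaling or signal table, no block, and animals left out.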

Additional observations from a re-analysis of the deposited data

Results flagged for a closer look

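Single animals stood apart in 14 of 169 gene differences and 3 of 34 list levels, among groups of 9, and chance flags about 1 in 20. ALO_PP animal 2 stood apart for Tmem215 (-0.374), Elavl2 (0.174), Nectin3 (0.817) and Ldha (0.144), all weaker towards CA3 than in the other animals or opposite, and its CA3 array for the CA3 list (mean log2 level 9.402). ALO_GP animal 1 stood apart for Fmo1 (2.356), Ttr (4.738) and Pfkl (-0.927). Its DG array was low in the granule list (10.655) and its CA3 array high in the microglia list (10.67). ALO_PP animal 1 stood apart for Maml2 (0.668), Tyrobp (0.525), Syt12 (-1.392) and Npy (-0.811). ALO_PP animal 3 did so for Gria4 (0.635) and Gad2 (0.358), and ALO_GP animal 3 for Crhbp (-0.261).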

How the results depend on the processing

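The count of 5526 probe sets passing between DG and CA3 moved between 4225 (without ALMA animal 2) and 6117 (without ALO_PP animal 2) when 1 animal was left out. It was 1910 with middle-aged animals only, 1746 with old animals only, 1929 for old animals in the table of all old arrays, and 3373 when both signals had to pass, an alternative added after the data were seen. The first 3 rest on fewer animals. The split was 2889 higher in DG and 1770 in CA3 after median centring, 2737 and 2676 after quantile normalisation, and 2315 and 2027 in the value table. Without the animal as a replicate block 4494 passed, and 9 instead of 0 for performance.

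By age 0 to 3 passed when 1 animal was left out (3 without ALMA animal 3), by performance 0 to 1 (1 without ALO_PP animal 3) and by diet 0 to 41 (41 without CRO_PP animal 1). Of 178 results for single genes 88 kept their direction and side of the threshold throughout. Reversals were few, and the cause was not tested. Marcksl1 ranged from -0.010 to 0.12 and Coch from -0.29 to 0.43 when animals were left out, and were -0.056 and -0.26 in middle-aged animals. Cpne9 ranged from -0.14 to 0.048, and was 0.036 in the value table, 0.0092 after median centring, 0.12 in old animals and 0.14 in the table of all old arrays. Fmo1 ranged from -0.21 to 0.25 and was -0.22 in middle-aged animals, and Mas1 ranged from -0.12 to 0.087. Ttr was 0.22 in old animals and 0.25 in the table of all old arrays. In the value table Nle1 by age was -0.060 and Golt1b by performance -0.12.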
